A study of Mus musculus with 20 samples.

Results

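Serpins are protease inhibitors, and the clade B members lack a classical secretion signal and act mostly inside cells. Most present a reactive loop that a target protease cuts, after which the protease is trapped in a covalent complex. In the adult they are known from leukocytes, barrier epithelia and keratinocytes. Serpinb9 inhibits granzyme B, Serpinb6a inhibits cathepsin G, Serpinb1a inhibits neutrophil elastase, Serpinb2 (PAI-2) inhibits urokinase, and Serpinb5 (maspin) is not an inhibitor in the classical sense. All genes named Serpinb with a number were taken, pseudogene names left out, which gave 27 of the 24411 genes listed. The family was picked because Serpinb9b was high in morulae and Serpinb6c was missing in late 2-cell embryos after Pcgf5 knockdown. Differences of morula from late 2-cell embryos in the siControl groups, and of siPcgf5 from siControl embryos at the late 2-cell stage, are therefore given as descriptions only.

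The mouse embryos had been fertilised in vitro and grown in KSOM medium, and their polyadenylated RNA was sequenced in 16 libraries, each of 10 pooled embryos. Embryos electroporated 3 hours after insemination with an siRNA against Pcgf5 (siPcgf5) or a non-targeting siRNA (siControl) were collected as late 2-cell embryos at 36 hours and as morulae at 72 hours, with 2 libraries in each of these 4 groups. The 4-cell embryos at 48 hours, with no siRNA in their labels, were homozygous (Homo KO, 3 libraries) or heterozygous (Hetero KO, 3) for loss of an MT2C_Mm element, a retroviral long terminal repeat that the labels name together with Pcgf5, or wild type (WT, 2). Pcgf5 is a subunit of a variant Polycomb complex that ubiquitinates histone H2A. No strain or number of founder lines is given in the labels, and siRNA knockdown leaves part of the mRNA.

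Summed expected counts ran from 14310634 to 55620137 per library. Pcgf5 stood at 59.1 and 103 TPM (transcripts scaled to a common total, a level per transcript length) in siPcgf5 and 397 and 931 TPM in siControl late 2-cell embryos. In morulae it stood at 24.3 and 19.3 TPM with siPcgf5 and 146 and 99.3 TPM with siControl. At the 4-cell stage it was 158 to 199 TPM in Homo KO, 248 to 331 TPM in Hetero KO and 254 and 339 TPM in WT embryos. The 8 late 2-cell markers summed to 8.63 to 24.4 TPM in morulae and to 1743 to 3096 TPM in late 2-cell libraries. The 12 morula and trophectoderm markers did not separate by their sum, at 190 to 334 TPM in morulae and 221 to 451 TPM in late 2-cell libraries. By the edgeR test described below, 9 of these 12 were higher and 1 lower in siPcgf5 morulae than in siPcgf5 late 2-cell embryos. The siControl late 2-cell libraries differed more from each other (chi-square per gene 165) than any other replicate pair (42.7 to 71.1). The p-values rest on the spread among libraries of a group, which may be technical. In pooled embryos fewer cells of a type and less RNA per cell cannot be told apart.

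The genes lie in 2 clusters: 12 on chromosome 1 (GRCm38.p6, 106861175 to 107608978) and 15 on chromosome 13 (32842092 to 34002794). RefSeq promoter windows, 250 bases before to 50 after a start site, were found for 25 of the 27 genes (31 windows). Of these, 5 are shown, since they belong to the leading chromosome 1 genes (Serpinb3a, Serpinb3b), to a near copy with no counts (Serpinb3c) and to the genes for which the family was picked. Capitals mark TATAAA in the Serpinb3 windows, and in Serpinb6c mark GCCNNNGGC (an AP-2 motif) and, near the 3′ end, TATAAA on the opposite strand. The windows are on GRCm38.p6: Serpinb3a at chr1:107052254-107052553, Serpinb3b at chr1:107161065-107161364, Serpinb3c at chr1:107278322-107278621 and Serpinb6c at chr13:33905142-33905441 on the minus strand, and Serpinb9b at chr13:33027164-33027463 on the plus strand.
Serpinb3a: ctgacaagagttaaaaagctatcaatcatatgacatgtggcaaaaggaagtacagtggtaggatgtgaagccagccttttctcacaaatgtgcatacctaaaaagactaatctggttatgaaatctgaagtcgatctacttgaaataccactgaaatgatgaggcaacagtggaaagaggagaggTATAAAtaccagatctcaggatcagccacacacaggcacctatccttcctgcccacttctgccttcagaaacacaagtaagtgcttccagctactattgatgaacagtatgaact
Serpinb3b: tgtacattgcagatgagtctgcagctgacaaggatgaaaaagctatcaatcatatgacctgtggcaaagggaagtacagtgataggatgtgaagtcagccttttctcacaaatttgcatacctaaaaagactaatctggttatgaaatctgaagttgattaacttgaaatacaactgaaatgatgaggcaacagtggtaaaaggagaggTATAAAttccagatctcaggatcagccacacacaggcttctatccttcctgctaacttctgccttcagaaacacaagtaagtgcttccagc
Serpinb3c: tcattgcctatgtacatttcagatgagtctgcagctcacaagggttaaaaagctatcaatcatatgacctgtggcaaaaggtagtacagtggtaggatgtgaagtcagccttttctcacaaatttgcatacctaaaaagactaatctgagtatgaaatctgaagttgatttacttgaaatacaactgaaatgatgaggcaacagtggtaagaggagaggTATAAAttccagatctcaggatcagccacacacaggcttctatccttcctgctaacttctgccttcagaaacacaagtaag
Serpinb6c: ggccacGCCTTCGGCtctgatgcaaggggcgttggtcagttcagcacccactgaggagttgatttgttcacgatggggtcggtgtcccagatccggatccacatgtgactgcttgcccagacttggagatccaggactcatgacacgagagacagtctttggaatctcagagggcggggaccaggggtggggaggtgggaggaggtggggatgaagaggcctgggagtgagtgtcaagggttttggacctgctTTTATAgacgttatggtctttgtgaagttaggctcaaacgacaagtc
Serpinb9b: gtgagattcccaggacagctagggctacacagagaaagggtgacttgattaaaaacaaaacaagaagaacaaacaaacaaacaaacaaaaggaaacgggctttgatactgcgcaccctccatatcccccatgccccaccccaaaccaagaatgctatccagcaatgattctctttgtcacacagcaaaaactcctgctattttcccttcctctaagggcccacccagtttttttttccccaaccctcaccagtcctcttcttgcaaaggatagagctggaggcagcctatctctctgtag

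The Serpinb3a and Serpinb3b windows were 79.3% identical in a global alignment and those of Serpinb3b and Serpinb3c 90.0%. The TATAAA run began 65 bases before the start site in Serpinb3a, 41 before in Serpinb3b and 31 before in Serpinb3c. TATAAA on either strand was in windows of 9 of the 25 genes (11 of 31 windows), against 13.62% of 32851 mouse windows. These were Serpinb2, Serpinb3a, Serpinb3b, Serpinb3c, Serpinb3d, Serpinb7 and Serpinb12 on chromosome 1 and Serpinb1c and Serpinb6c on chromosome 13. GCCNNNGGC was in windows of 3 genes (4 windows), against 16.59% of all windows. GGAATG, a TEAD motif, was in windows of 5 genes, Serpinb6a and Serpinb12 among them, against 14.66%. GGATTA, the core bound by OTX-type homeobox factors, was in 1, against 7.06%. Both strands were searched, no matches of different motifs overlapped in the windows printed, and the Serpinb9b window held none of the 4. The Serpinb9b window was 57.4% identical to that of Serpinb9, and the Serpinb6c window 45.9% identical to that of Serpinb6a. Other pairs aligned in this way went down to 40.2% (Serpinb9b and Serpinb9g), and Serpinb3a and Serpinb3d gave 45.9%. Windows of unrelated genes were not aligned, so no likeness is read from 45.9%.

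Across all 16 libraries 8 of the 27 genes had no counts: Serpinb3c, Serpinb3d, Serpinb10, Serpinb11 and Serpinb13 on chromosome 1, and Serpinb9c, Serpinb9d and Serpinb9e on chromosome 13. Another 8 (Serpinb1b, Serpinb2, Serpinb6b, Serpinb6d, Serpinb6e, Serpinb7, Serpinb9f and Serpinb9g) never passed 1.39 TPM or 54 counts. The remaining 11 averaged at least 1 TPM in some group. The counts are estimates, yet all 432 values of the family were whole numbers. How reads that fit several near-identical copies were placed is not given in the sources used here, so values of close copies such as Serpinb3a and Serpinb3b are uncertain.

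**Figure D1:**
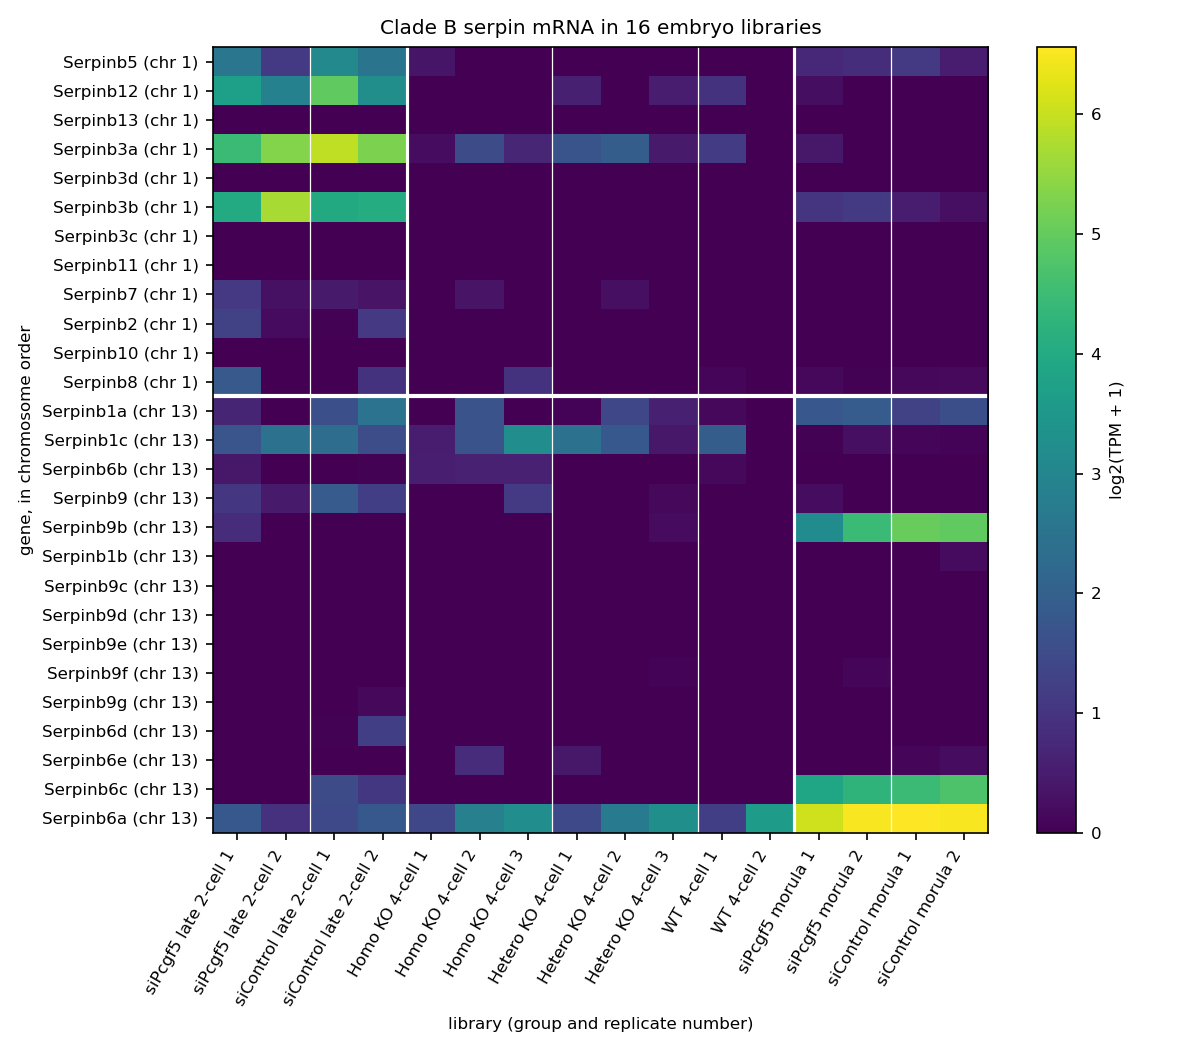
Level of each of the 27 genes (down, in chromosome order) in each of the 16 libraries (across, by stage), as log2(TPM + 1). Serpinb3a, Serpinb3b, Serpinb12 and Serpinb5 on chromosome 1 are bright in the late 2-cell libraries, and Serpinb6a, Serpinb6c and Serpinb9b on chromosome 13 in the morulae.

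The family's mRNA came mainly from chromosome 1 in late 2-cell embryos and from chromosome 13 in morulae. The 12 chromosome 1 genes summed to 2.33 and 2.02 TPM in siPcgf5 morulae, against 58.3 and 98.9 TPM in siPcgf5 late 2-cell embryos. They summed to 1.68 and 0.78 TPM in siControl morulae, against 113 and 69.1 TPM in siControl late 2-cell embryos. The 15 chromosome 13 genes summed to 91.8 and 133 TPM in siPcgf5 morulae, against 7.64 and 5.81 TPM in siPcgf5 late 2-cell embryos. In siControl embryos they summed to 148 and 147 TPM in morulae and 12.4 and 12.9 TPM at the late 2-cell stage. Chromosome 13 thus held 97.5% to 99.5% of the family sum in the 4 morula libraries and 5.55% to 15.8% in the 4 late 2-cell libraries. The groups of the stages did not overlap. These shares and the lack of overlap are descriptions, as the sums hold Serpinb9b and Serpinb6c, for which the family was picked. In siControl morulae Serpinb9b averaged 30.9 TPM and Serpinb6c 23.4 TPM. Serpinb6a alone averaged 91.4 TPM in siControl and 78.7 TPM in siPcgf5 morulae, the largest part of the sums. No share of all genes without overlap is given beside them. In the 8 4-cell libraries the whole family summed to only 3 to 19.9 TPM, with 66.1% to 100% from chromosome 13, and stage and experiment cannot be told apart there.

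**Figure D2:**
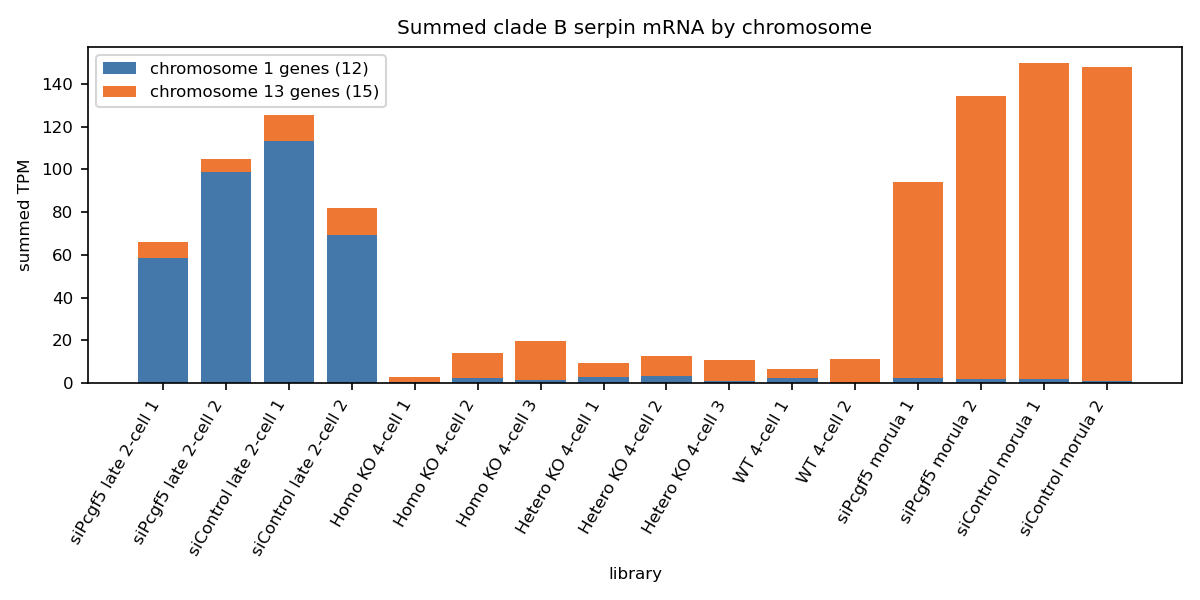
Summed TPM of the 12 chromosome 1 genes and the 15 chromosome 13 genes, stacked, in each of the 16 libraries. The late 2-cell bars are mostly chromosome 1 (58.3 to 113 TPM) and the morula bars almost wholly chromosome 13 (91.8 to 148 TPM).

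The stage difference was tested in the siPcgf5 embryos. With edgeR's quasi-likelihood test and Benjamini-Hochberg adjustment over 16980 genes, 4 of the 13 members with enough counts were higher in siPcgf5 morulae than in siPcgf5 late 2-cell embryos, where 24.5% of all genes were, and 6 were lower, where 28.2% of all genes were. The median log2 fold change was -3.23 over the 13 members, also with members at 0 set to their bounds, and -0.38 over all genes tested. A member that passed the count filter only through the stage at which it was high was favoured in advance to differ, so these counts describe the family. Of the 13, 6 members (Serpinb1c, Serpinb2, Serpinb3a, Serpinb7, Serpinb9 and Serpinb12) reached it only through late 2-cell libraries and 1 (Serpinb9b) only through morula libraries. The 4 higher genes (Serpinb6a, Serpinb6c, Serpinb9b, Serpinb1a) all lie on chromosome 13, and 5 of the 6 lower ones (Serpinb3a, Serpinb3b, Serpinb12, Serpinb2, Serpinb7) on chromosome 1. The other lower gene was Serpinb1c on chromosome 13. The counts hold 4 genes whose calls depended on the setting: Serpinb9b lost its call without the count filter (adjusted p = 0.0700), Serpinb7 without the filter and whichever siPcgf5 library was left out (0.0635 to 0.271), Serpinb1c without siPcgf5 late 2-cell replicate 2 (0.0582), and Serpinb2 without siPcgf5 late 2-cell replicate 1 (0.211) or either siPcgf5 morula library (0.128 and 0.148). In the siControl embryos 3 members were higher and 7 lower in morulae, beside 24.9% and 28.1% of all genes, and nothing is read from these counts.

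Serpinb6a was the most abundant member in every morula library and was present in all 16 libraries. It stood at 67.3 and 90.0 TPM in siPcgf5 morulae, against 2.53 and 0.92 TPM in siPcgf5 late 2-cell embryos. It rose by 6.37 on the log2 scale (SE 0.47, adjusted p = 3.32e-06), and by 7.24 and 5.80 when siPcgf5 late 2-cell replicate 1 or replicate 2 was left out. The siControl values were 93.6 and 89.3 TPM in morulae and 1.74 and 2.48 TPM at the late 2-cell stage. The stages did not overlap in either treatment.

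Serpinb9b, one of the mouse copies related to Serpinb9, was nearly absent before the morula. It stood at 7.96 and 21.3 TPM (520 and 2073 counts) in siPcgf5 morulae, against 0.79 and 0 TPM (30 and 0 counts) in siPcgf5 late 2-cell embryos. The fitted log2 fold change was 6.16 (SE 1.22). It is given as a description, since the gene was picked for its level in morulae and reached the count filter only through morula libraries. The 30 counts are all from siPcgf5 late 2-cell replicate 1, without which that group had none. The log2 fold change was 5.06 without siPcgf5 late 2-cell replicate 2 and 5.23 without siPcgf5 morula replicate 2. With siControl it stood at 31.7 and 30.1 TPM in morulae and had no counts at the late 2-cell stage, a difference of at least 1618-fold against a floor of 3 counts over the group. At the 4-cell stage 1 of the 8 libraries (Hetero KO replicate 3) had 3 counts, and the others had none. Serpinb9 itself, the granzyme B inhibitor, was at 0.17 and 0 TPM in siPcgf5 morulae and 1.06 and 0.38 TPM in siPcgf5 late 2-cell embryos, a difference that did not pass the test (log2 fold change -2.31, SE 1.41, adjusted p = 0.190). It was at 0 in siControl morulae and at 2.71 and 1.34 TPM in siControl late 2-cell embryos.

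Serpinb6c, a copy neighbouring Serpinb6a, had no counts in either siPcgf5 late 2-cell library. In siPcgf5 morulae it stood at 13.9 and 18.1 TPM (592 and 1151 counts), at least 556-fold higher than the floor of the siPcgf5 late 2-cell group. With siControl it stood at 21.3 and 25.5 TPM in morulae and at 1.84 and 1.10 TPM (55 and 22 counts) at the late 2-cell stage. It had no counts in any 4-cell library. The zeros at the late 2-cell stage were among the values by which the family was picked, so the fold is a description.

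Serpinb1a, the elastase inhibitor, was low at both stages. It stood at 2.46 and 2.73 TPM in siPcgf5 morulae and 0.61 and 0 TPM in siPcgf5 late 2-cell embryos, and rose by 3.98 on the log2 scale (SE 1.19, adjusted p = 0.0169). The change was 2.93 without siPcgf5 late 2-cell replicate 2, and the late 2-cell group had no counts without replicate 1. The siControl values were 1.47 and 1.98 TPM in morulae and 2.04 and 4.64 TPM at the late 2-cell stage, lower in morulae by TPM, while the TMM-scaled fit gave a log2 fold change of 0.04, so the direction differs between the scales. Serpinb1c, a close relative, went the other way, with 0.02 and 0.20 TPM in siPcgf5 morulae and 2.32 and 4.51 TPM in siPcgf5 late 2-cell embryos. Its fitted log2 fold change was -3.96 (SE 1.07), a description, as it reached the count filter only through late 2-cell libraries. Its call was lost without siPcgf5 late 2-cell replicate 2. The log2 fold change was -3.14 and -6.50 without siPcgf5 morula replicate 1 or replicate 2. The siControl values were 0.06 and 0.04 TPM in morulae and 4.04 and 1.93 TPM at the late 2-cell stage.

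**Figure D3:**
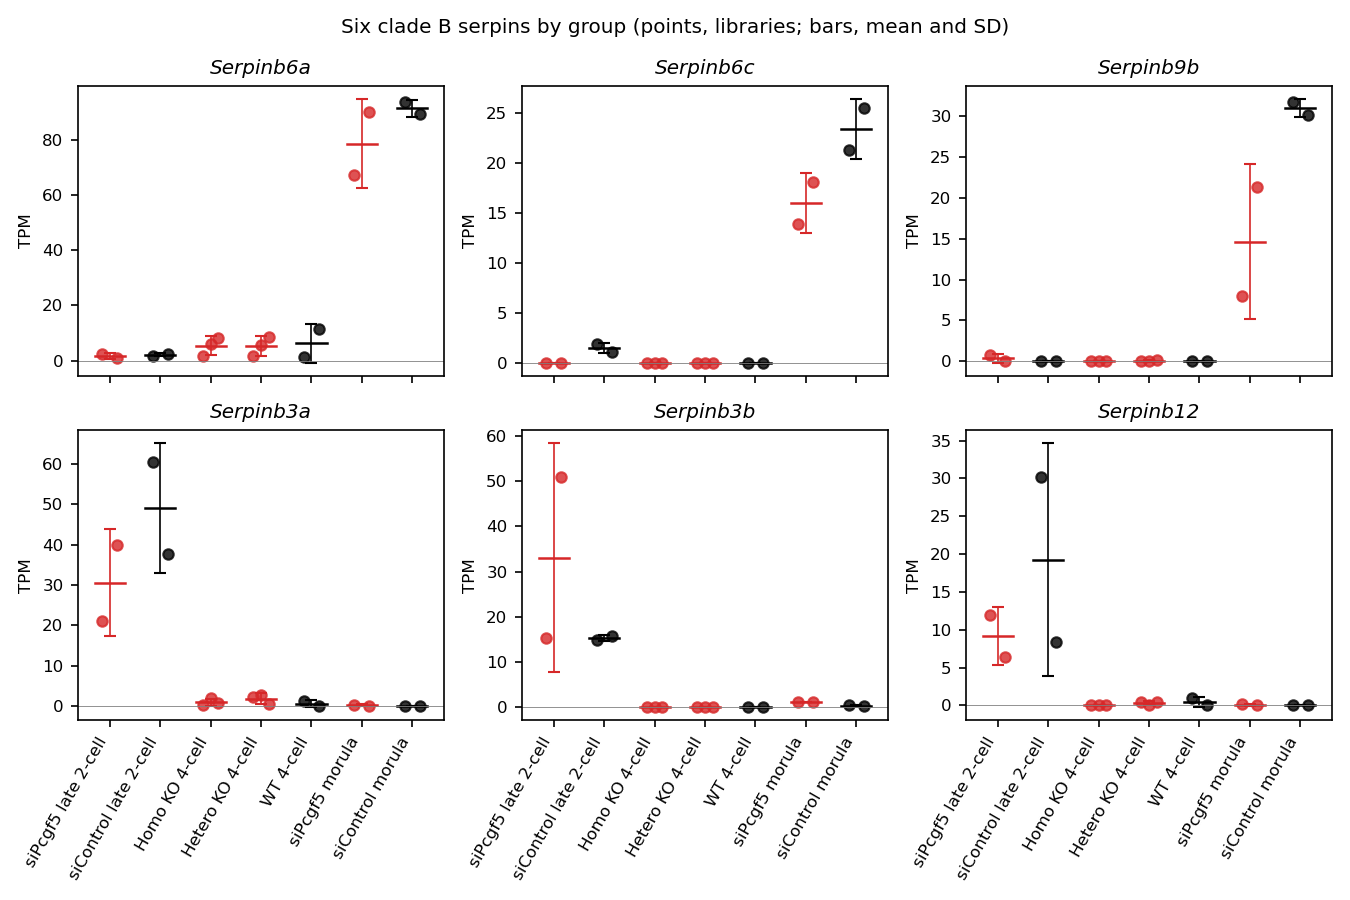
TPM of 6 members in every library by group, with points for libraries, long bars for means and error bars for SD (2 or 3 libraries per group). Serpinb6a, Serpinb6c and Serpinb9b are highest in the morula groups (13.9 to 93.6 TPM for the first 2), and Serpinb3a, Serpinb3b and Serpinb12 in the late 2-cell groups.

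On chromosome 1 the leading genes were Serpinb3a and Serpinb3b, mouse relatives of human inhibitors of cysteine cathepsins and chymotrypsin-like proteases. Serpinb3a stood at 0.33 and 0 TPM in siPcgf5 morulae, against 21.2 and 40.0 TPM in siPcgf5 late 2-cell embryos. The fitted log2 fold change was -6.81 (SE 1.04). It is given as a description, since the gene reached the count filter only through late 2-cell libraries. The change was -5.66 without siPcgf5 morula replicate 2, and replicate 1 held all of the morula group's 18 counts. With siControl it had no counts in morulae and 60.5 and 37.8 TPM at the late 2-cell stage.

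Serpinb3b stood at 1.03 and 1.17 TPM in siPcgf5 morulae, against 15.2 and 51.0 TPM in siPcgf5 late 2-cell embryos. It fell by 4.02 on the log2 scale (SE 0.58, adjusted p = 0.000203), and the change was -4.63 without siPcgf5 late 2-cell replicate 1 and -2.93 without replicate 2. The siControl values were 0.41 and 0.21 TPM in morulae and 14.8 and 15.8 TPM at the late 2-cell stage. The balance of the pair differed between libraries. Serpinb3b gave 41.8% and 56.1% of their joint counts in siPcgf5 and 19.7% and 29.6% in siControl late 2-cell embryos, and 75.7% to 100% in the 4 morula libraries. In 4-cell embryos Serpinb3a had 3 to 56 counts in 7 of the 8 libraries and Serpinb3b none in any.

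Serpinb12, an inhibitor of trypsin-like proteases, stood at 0.19 and 0 TPM in siPcgf5 morulae, against 11.9 and 6.42 TPM in siPcgf5 late 2-cell embryos. Its fitted log2 fold change was -5.95 (SE 1.16), and -4.81 without siPcgf5 morula replicate 2. These are descriptions, as the gene reached the count filter only through late 2-cell libraries. Without replicate 1 the morula group had no counts. It had no counts in siControl morulae and 30.1 and 8.41 TPM in siControl late 2-cell embryos. Serpinb5 stood at 0.68 and 0.81 TPM in siPcgf5 morulae and 4.95 and 1.16 TPM in siPcgf5 late 2-cell embryos, without passing the test (log2 fold change -1.18, SE 0.72, adjusted p = 0.186). The siControl values were 1.16 and 0.44 TPM in morulae and 7.50 and 4.78 TPM at the late 2-cell stage. Serpinb8, a furin inhibitor, reached 2.59 TPM in 1 siPcgf5 late 2-cell library and was at or under 0.95 TPM in the others, and did not pass the test (adjusted p = 0.249).

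Serpinb2 and Serpinb7 (megsin) were very low and reached the count filter only through late 2-cell libraries, so their differences are given as descriptions. Serpinb2 had no counts in siPcgf5 morulae and 1.39 and 0.14 TPM in siPcgf5 late 2-cell embryos, at least 23.5-fold lower in morulae. Serpinb7 stood at 0 and 0.01 TPM in siPcgf5 morulae and 1.11 and 0.23 TPM in siPcgf5 late 2-cell embryos (log2 fold change -5.62, SE 2.12). Both were higher in the first of the siPcgf5 late 2-cell libraries than in the second.

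**Figure D4:**
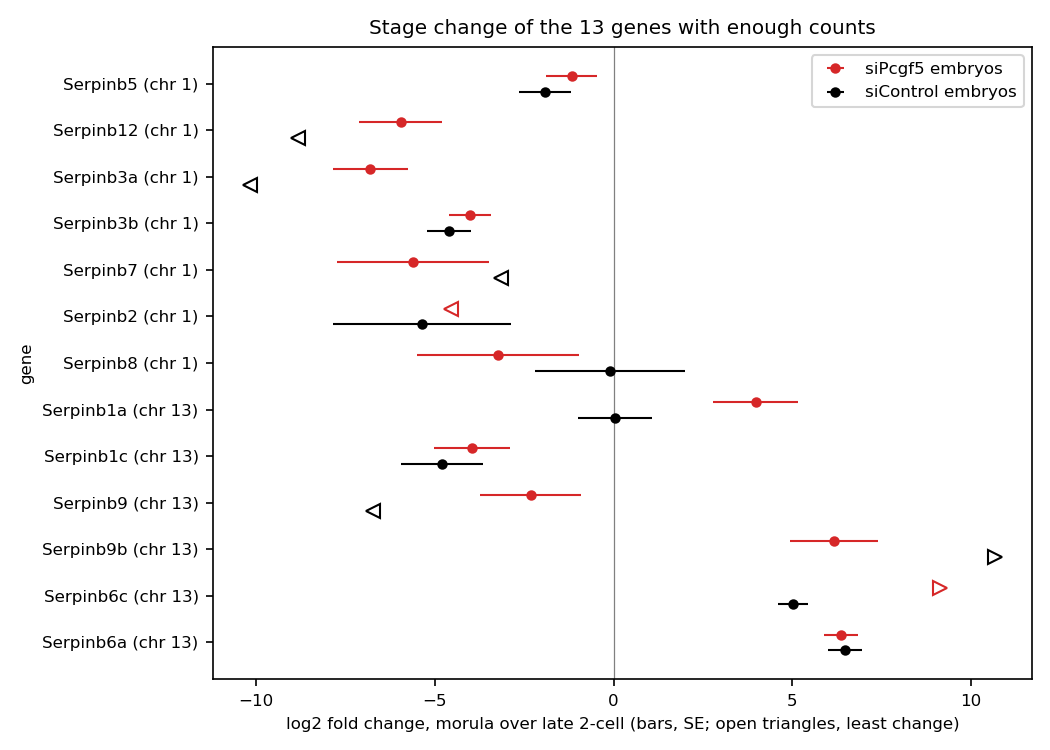
Log2 fold change of morula over late 2-cell embryos for the 13 members with enough counts, siPcgf5 in red and siControl in black, with SE bars. Open triangles are the least change allowed by a floor of 3 counts where a group had none. Serpinb6a changed by 6.37 with siPcgf5 and 6.47 with siControl.

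Markers of other cells moved with the same stages. The 11 oocyte markers summed to 57.8 to 86.5 TPM in morulae and 27088 to 43768 TPM in late 2-cell libraries. The 12 cumulus and granulosa markers summed to 0.03 to 0.24 TPM in morulae and 24.7 to 40.3 TPM in late 2-cell libraries. Tnfaip6 averaged 0.035 TPM in siPcgf5 morulae and 30.4 TPM in siPcgf5 late 2-cell embryos. Ptgs2, Fst and Cyp19a1 were at 0 in siPcgf5 morulae and averaged 0.45, 0.41 and 0.79 TPM in siPcgf5 late 2-cell embryos. Amh was at 0 in all groups. The 10 blood and leukocyte markers summed to 46.1 to 94.6 TPM in morulae and 1145 to 2013 TPM in late 2-cell libraries, led by Hba-a2 (a globin). The leukocyte marker Cd52 averaged 6.48 TPM in siPcgf5 morulae and 56.3 TPM in siPcgf5 late 2-cell embryos. Fcer1g averaged 0.06 and 8.23 TPM in the same groups. Ptprc was at 0 in all libraries but 1 siControl late 2-cell library. The 8 keratinocyte markers summed to 11.3 to 13.1 TPM in morulae and 26.5 to 29.9 TPM in late 2-cell libraries. Trp63 was at 0 in siPcgf5 morulae and averaged 1.92 TPM in siPcgf5 late 2-cell embryos. Krt14 went the other way, at 1.17 and 0 TPM in the same groups. Krt5 was at 0 in all groups. The 8 sperm markers summed to 7.45 to 11.2 TPM in morulae and 73.9 to 109 TPM in late 2-cell libraries. Of the tested markers, 10 of 11 oocyte, 4 of 6 cumulus and granulosa, 3 of 6 blood and leukocyte and 3 of 5 sperm markers were lower in siPcgf5 morulae than in siPcgf5 late 2-cell embryos, and 1 of 4 keratinocyte markers was lower and 1 higher. The part of these cells' RNA in the serpin values was not tested.

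At the late 2-cell stage Serpinb6c was listed at 0 after knockdown. It had 0 and 0 counts in siPcgf5 and 55 and 22 counts in siControl embryos, at least 25.4-fold lower. It was the 1 member called lower, beside 0.00589% of all genes (1 of 16980, Serpinb6c itself), and 0 members were called higher, beside 0.00589%. As the family was picked on it, nothing is read from this. Genes with no counts in either siPcgf5 library and at least 20 in both siControl libraries numbered 23, and 16 showed the mirrored pattern. The limit of 20 was chosen after Serpinb6c's counts were seen. Serpinb1a stood at 0.61 and 0 TPM in siPcgf5 and 2.04 and 4.64 TPM in siControl embryos. Serpinb9 stood at 1.06 and 0.38 TPM in siPcgf5 and 2.71 and 1.34 TPM in siControl embryos. Serpinb3b was 15.2 and 51.0 TPM in siPcgf5 and 14.8 and 15.8 TPM in siControl embryos.

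In morulae no member of the 13 tested passed (edgeR's quasi-likelihood test, Benjamini-Hochberg adjustment), beside 0% of all genes in either direction. At an unadjusted p under 0.05 stood 3 members (Serpinb3a, Serpinb3b and Serpinb9) and 716 of all genes. Among the morula libraries Serpinb3a (18 counts) and Serpinb9 (20 counts) had counts only in siPcgf5 replicate 1. DESeq2 called 5 genes higher and 18 lower, and no member. Pcgf5 itself did not pass in this test (log2 fold change -2.53, SE 0.44, adjusted p = 0.242). Serpinb9b was 7.96 and 21.3 TPM in siPcgf5 and 31.7 and 30.1 TPM in siControl morulae, a log2 fold change of -1.10 (SE 0.93). As the gene was picked for its level in morulae, this is a description. Serpinb6c stood at 13.9 and 18.1 TPM in siPcgf5 and 21.3 and 25.5 TPM in siControl morulae, with a log2 fold change of -0.58 (SE 0.34). Serpinb1a went the other way, at 2.46 and 2.73 TPM in siPcgf5 and 1.47 and 1.98 TPM in siControl morulae. Its log2 fold change was 0.56 (SE 1.03). Serpinb6a overlapped between siPcgf5 and siControl morulae (-0.25, SE 0.37). Serpinb3b stood at 1.03 and 1.17 TPM in siPcgf5 and 0.41 and 0.21 TPM in siControl morulae (log2 fold change 1.80, SE 0.58, adjusted p = 0.982). The siPcgf5 effect at the morula less that at the late 2-cell stage passed in 0 of the 13 members and 0% of all genes. At an unadjusted p under 0.05 for this difference stood 6 members and 842 genes, and DESeq2 gave 18 genes higher and 14 lower. The 6 were Serpinb1a, Serpinb3a, Serpinb6c, Serpinb9, Serpinb9b and Serpinb12. Of these, Serpinb3a, Serpinb9 and Serpinb12 had morula counts only in siPcgf5 replicate 1. Serpinb6c had an adjusted p of 0.281 for this difference, which holds the late 2-cell values by which the gene was picked, and it passed without the count filter and with DESeq2 (adjusted p 0.000607 and 0.00541).

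In 4-cell embryos the family was low in all 3 genotypes. Only 5 members had enough counts, and 0 of them passed in Homo KO against WT, Hetero KO against WT or Homo KO against Hetero KO embryos, beside 0% of 13766 genes in each. The lowest adjusted p among them was 0.559, 0.945 and 0.533 in that order (edgeR). At an unadjusted p under 0.05 stood 0, 0 and 1 of the 5 members, and 1701, 655 and 1131 of all genes. DESeq2 called 237 genes higher and 96 lower in Homo KO against WT, 6 and 1 in Hetero KO against WT, and 89 and 22 in Homo KO against Hetero KO, with no member among them. Serpinb6a had the highest mean of the family in each genotype, with 1.62, 6.19 and 8.34 TPM in Homo KO, 1.71, 5.60 and 8.72 TPM in Hetero KO and 1.31 and 11.4 TPM in WT embryos. Serpinb1c stood at 0.45, 2.19 and 8.27 TPM in Homo KO, 4.60, 2.53 and 0.34 TPM in Hetero KO and 2.80 and 0 TPM in WT embryos. Serpinb3a stood at 0.16, 1.88 and 0.62 TPM in Homo KO, 2.28, 2.83 and 0.38 TPM in Hetero KO and 1.19 and 0 TPM in WT embryos. In these 3 genes the genotypes overlapped. Serpinb6b had 10, 11 and 11 counts in Homo KO, none in Hetero KO and 2 and 0 counts in WT embryos. Against Hetero KO it was at least 10.8-fold higher and did not pass the edgeR test (adjusted p = 0.533). The fold is a description, since the gene had enough counts only through Homo KO, where it was high.

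Genes of proteases and of proteins that act with them were read beside the family, in siPcgf5 morulae against siPcgf5 late 2-cell embryos. Not all of them are known targets of clade B serpins. Of 11 granzyme and perforin genes 3 had enough counts, and 1, Gzmm, was higher (on average 13.4 TPM in siPcgf5 morulae and 5.32 TPM in siPcgf5 late 2-cell embryos, log2 fold change 2.20, median of the list -1.87). Of the 4 neutrophil and mast cell proteases 2 were tested, with Cma1 higher (on average 1.47 TPM in siPcgf5 morulae, 0 in siPcgf5 late 2-cell embryos) and Prtn3 lower (log2 fold change -1.52, median 1.91 with Cma1 at its bound). Of 10 cysteine cathepsins 9 were tested, with 2 higher (Ctsz, 1.62, and Ctsb, 0.66) and 2 lower (Ctsk, -5.04, and Ctss, 0 TPM in siPcgf5 morulae and 16.9 TPM in siPcgf5 late 2-cell embryos), median 0.37. Ctsb averaged 92.2 TPM in siPcgf5 morulae and 107 TPM in siPcgf5 late 2-cell embryos, so its direction differs between TPM and the TMM-scaled fit.

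Of the 8 caspases 2 were higher and 2 lower, median -0.07. Casp6, an executioner caspase, averaged 187 TPM in siPcgf5 morulae and 12.2 TPM in siPcgf5 late 2-cell embryos, a log2 fold change of 4.80. Casp8 and Casp1 were at 0 in siPcgf5 morulae and averaged 1.75 and 1.24 TPM in siPcgf5 late 2-cell embryos. Of 4 tested plasminogen activation genes Plaur, the urokinase receptor, was higher (3.89) and Plat, tissue plasminogen activator, lower (-3.04), median 1.04 with genes at 0 set to their bounds. Of 6 membrane and furin-like proteases Pcsk6 (4.41), Pcsk7 (2.90) and St14 (2.54) were higher and 2 lower, Prss8 among them (-2.83), median 1.00. Over all genes tested the median was -0.38, with 24.5% higher and 28.2% lower, and the lists were not tested as sets. In the comparisons of siPcgf5 with siControl at either stage and among the 4-cell genotypes 0 genes of these lists passed the edgeR test. Beside this stood 0.00589% of all genes in each direction at the late 2-cell stage, and 0% in morulae and among the genotypes. Nothing about the proteases is read from these counts.

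Serpins of other clades (35 genes, 12 tested) gave 0 higher and 4 lower in siPcgf5 morulae than in siPcgf5 late 2-cell embryos, median -1.35, with Serpini1 at -4.11, Serpinc1, antithrombin, at -2.75 and Serpinf1 at -4.94. Serpina1f, the other one, was at 0 TPM in siPcgf5 morulae and averaged 0.43 TPM in siPcgf5 late 2-cell embryos. The 12 nearest other genes flanking the clusters, 10 of them tested, gave 2 higher and 3 lower, median -2.26. Vps4b (1.96) and Kdsr (1.51), which lie below the chromosome 1 cluster, were higher, and 5 of that cluster's 7 tested genes were lower. Cdh19 (-4.16), 3279 kb above the same cluster, was lower too. Tubb2a (-3.73), 71.5 kb beyond Serpinb6a on chromosome 13, was lower in the siPcgf5 morulae in which Serpinb6a was higher.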

How the data were processed

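The deposited files hold 1 row per gene with expected counts, not normalized by the authors, and TPM scaled by the authors' software to a common total, per the file headers. Per the submitters' processing notes, which give no role or order, the tools included RSEM 1.3.3, STAR 2.7.10, deepTools and Bowtie2 2.4.5, with the mm10 build. After rounding to whole numbers, the 8 siRNA and the 8 4-cell libraries were each fitted with edgeR 4.0.16 in R 4.3.3 (filterByExpr with a minimum count of 10, TMM, robust quasi-likelihood test, two-sided, 1 coefficient per group), which kept 16980 and 13766 genes. P-values were Benjamini-Hochberg adjusted over all of them, with a threshold of 0.05. A group without counts was set to a floor of 3 counts over the group, covering only counting error, as PCR copies of a molecule are not independent. Members averaging at least 1 TPM in a group were described by library, and of each other list up to 4 called genes with the smallest p were named. The family, the lists and the tests were chosen with earlier results of these data known. Alternatives were DESeq2 1.42.0, its size factors, no filter, a replicate block and leaving out each library. Positions and promoters come from RefSeq (GRCm38.p6), in which 27 of 27 members matched. The fit was tested on simulated data. The 4 chromatin libraries were not analysed here. One gene of the protease lists is not reported here.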

Additional observations from a re-analysis of the deposited data

How the results depend on the processing

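The count of members called lower in siPcgf5 than in siControl late 2-cell embryos was 1 (Serpinb6c) and became 0 with a replicate block, and ranged from 0 to 1 when each library was left out, with 0 without siControl replicate 1, siPcgf5 replicate 1 or siPcgf5 replicate 2. The count of members whose siPcgf5 effect was higher at the morula than at the late 2-cell stage was 0 and became 1 (Serpinb6c) without the count filter (adjusted p = 0.000607) and with DESeq2 (0.00541). The chromosome 13 share of the family in siControl morulae was 99.2% by TPM and 98.7% by TMM-scaled CPM. No direction reversed between the fits run, and every other count of members stayed within 1.5 times under them. Mean TPM gave another direction than the TMM-scaled fit for Serpinb1a between stages in siControl embryos and for Ctsb in siPcgf5 embryos. In the replicate block Serpinb7 (adjusted p = 0.106) and Serpinb2 (0.0770) also lost their siPcgf5 stage calls. Replicate numbers did not pair the libraries: deviations of same-numbered libraries correlated at -0.04 to 0.01 in the siRNA libraries and -0.13 to 0.17 at the 4-cell stage. Where a group was left with 1 library, that library was assumed to vary like the other groups. DESeq2's size factors moved the median log2 stage change of all genes to -0.47 in siPcgf5 and -0.51 in siControl embryos, against -0.38 and -0.34 with TMM. With 2 or 3 libraries in a group and a common coefficient of variation of 0.460 (siRNA) and 0.517 (4-cell), small changes of low genes were not detectable. Over all genes, without the count filter siPcgf5 against siControl gave 14 higher and 14 lower at the late 2-cell stage and 6 and 20 in morulae, the difference of these effects 12 and 21, and Homo KO against WT 38 and 21. At the late 2-cell stage DESeq2 gave 27 and 45, its size factors 2 and 3, and leaving out siControl replicate 2 gave 40 and 23, against 1 and 1 in edgeR.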
